A study of Mus musculus with 12 samples.

Results

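The genes of the nuclear-encoded subunits of the mitochondrial respiratory chain were read on 12 microarrays of mouse spleen CD11c+ cells. They were chosen by name alone, as the Nduf, Sdh, Uqcr, Cox and Atp5 subunit symbols of the array's probe list, without assembly factors (Ndufaf) and without Cox6a2. The rule gave 80 symbols that stand for 79 genes on 118 probes. Of these, 72 genes (101 probes) were detected on at least 3 of the 12 arrays and entered the tests, out of 13525 tested genes in all. They comprise 35 genes of complex I, 3 of complex II, 7 of complex III, 11 of complex IV and 16 of ATP synthase. Ndufs5-ps, counted under complex I, is a pseudogene of Ndufs5 in the current gene table, so its signal cannot be assigned to either with certainty.

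Spleen cells that carry CD11c, an integrin of dendritic cells, had been enriched on magnetic columns. The 4 groups of 3 samples were wild-type mice (labelled Bl6) on normal chow (samples 7 to 9) or on a high cholesterol diet (samples 10 to 12), and mice without apolipoprotein E (ApoE-/-, ApE-/- in one field) on chow (samples 1 to 3) or on the high cholesterol diet (samples 4 to 6). The series' design text calls the second diet high fat. The labels give no age, sex, time on diet or number of mice behind a sample, and none says whether each sample is its own mouse, so p-values rest on a spread between samples that may be purely technical. The arrays come from whole selected fractions: fewer cells of a type and less RNA per cell cannot be told apart in them.

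The respiratory chain sits in the inner mitochondrial membrane. Complex I takes electrons from NADH and complex II takes them from succinate. Both pass them through ubiquinone to complex III, and cytochrome c carries them on to complex IV, which reduces oxygen. The protons pumped on the way drive ATP synthase. Most subunits are encoded in the nucleus, while a core set comes from mitochondrial DNA and is not part of the genes described here. In dendritic cells the balance between this chain and glycolysis is known to shift on activation, when glycolysis increases. Promoters of these genes are known targets of the transcription factors NRF1, GABPA (an ETS factor) and YY1.

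Of the 79 genes, 65 had a promoter window in the RefSeq table (build GRCm38.p6), 300 bases long and running past a transcript's start. The printed windows are examples that hold the letters of these factors, beside Cox7b and Sdhd, which recur in the comparisons. Capitals mark exact matches, on either strand, to the NRF1 core CGCATGCG, the ETS core CCGGAAG or the YY1 letters AAGATGGCG. Cox6a1 and the printed one of 2 Atp5j windows hold matches to more than 1 of them (the other Atp5j window holds none), Ndufs4 holds the YY1 letters beyond its start, Sdhd holds an ETS core, and Cox7b holds none.
Cox6a1 (chr5:115348909-115349208, minus strand): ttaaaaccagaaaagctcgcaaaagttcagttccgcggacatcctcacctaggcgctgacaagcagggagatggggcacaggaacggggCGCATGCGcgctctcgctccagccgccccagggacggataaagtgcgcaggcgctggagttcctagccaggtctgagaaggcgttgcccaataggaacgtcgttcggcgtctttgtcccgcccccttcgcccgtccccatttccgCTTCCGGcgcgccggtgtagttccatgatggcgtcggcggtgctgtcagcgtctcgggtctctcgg
Atp5j (chr16:84834927-84835226, minus strand): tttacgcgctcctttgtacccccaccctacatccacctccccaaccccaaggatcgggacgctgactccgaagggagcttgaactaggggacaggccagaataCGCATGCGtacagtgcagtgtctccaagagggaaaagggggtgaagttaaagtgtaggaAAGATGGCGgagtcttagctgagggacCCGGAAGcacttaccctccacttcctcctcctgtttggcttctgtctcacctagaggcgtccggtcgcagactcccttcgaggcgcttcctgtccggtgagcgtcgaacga
Ndufs4 (chr13:114388045-114388344, minus strand): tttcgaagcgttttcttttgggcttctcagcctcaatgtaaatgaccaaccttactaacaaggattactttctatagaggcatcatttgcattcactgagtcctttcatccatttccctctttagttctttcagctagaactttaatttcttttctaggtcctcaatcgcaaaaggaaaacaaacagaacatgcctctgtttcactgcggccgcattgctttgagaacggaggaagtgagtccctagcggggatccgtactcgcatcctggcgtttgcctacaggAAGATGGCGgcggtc
Sdhd (chr9:50603800-50604099, minus strand): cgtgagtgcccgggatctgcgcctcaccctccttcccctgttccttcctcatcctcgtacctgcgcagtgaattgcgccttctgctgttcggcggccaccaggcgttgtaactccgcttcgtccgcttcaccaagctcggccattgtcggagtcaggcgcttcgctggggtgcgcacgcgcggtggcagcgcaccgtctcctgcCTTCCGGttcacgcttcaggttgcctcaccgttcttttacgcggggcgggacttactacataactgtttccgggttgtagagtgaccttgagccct
Cox7b (chrX:106015450-106015749, plus strand): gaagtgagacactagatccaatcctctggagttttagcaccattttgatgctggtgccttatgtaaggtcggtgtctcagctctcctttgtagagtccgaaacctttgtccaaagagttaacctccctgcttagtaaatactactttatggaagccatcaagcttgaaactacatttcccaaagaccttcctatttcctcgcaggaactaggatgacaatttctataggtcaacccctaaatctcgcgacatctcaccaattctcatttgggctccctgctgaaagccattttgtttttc

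In these windows the first base of the match lay at -161 (NRF1 core) and -16 (ETS core) from the start in Cox6a1, and at -147 (NRF1 core), -88 (YY1) and -61 (ETS core) in Atp5j. The Ndufs4 match stood at 36 bases after the start and the Sdhd match at -46. Over the 65 genes, 9 (13.8%) held the NRF1 core, against 3.75% of the 10694 tested genes with a window and 2.07% of all 27025 genes of the table. The longer NRF1 motif, which contains that core, stood in 5 genes (7.69%, against 1.96% and 1.07%). The YY1 letters stood in 7 genes (10.8%, against 3.03% and 1.64%), and the ETS core in 16 (24.6%, against 17.6% and 9.93%). For the longer ETS form CCGGAAGT, which contains the ETS core, the counts were 4 genes (6.15%, against 7.92% and 4.31%). The letters GGGCGG, the SP1 box, stood in 29 genes (44.6%, against 62.3% and 38.2%), the letters TGACGTCA, the cyclic AMP response element, in 4 (6.15%, against 3.1% and 2.03%), and TATAAA in 8 (12.3%, against 10.7% and 15.7%). Median GC content was 58% in the subunit windows and 59.3% in those of the tested genes. The shares of both NRF1 forms, YY1, the ETS core and the cyclic AMP response element were above both background sets, and those of the longer ETS form, the SP1 box and TATAAA lay between them. These are descriptions of letters, with no test, and say nothing of binding.

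Between 47.7% and 50.3% of the probes were detected per array, with a median intensity of 102 to 120. Apoe, the targeted gene, ran from 5.50 to 5.93 log2 units on the 6 knockout arrays and from 12.18 to 13.29 on the 6 wild-type arrays; the place of its probe against the deleted part is not known here. Itgax, which encodes CD11c, was detected on all 12 arrays (8.03 to 8.73), as was Zbtb46, a factor of conventional dendritic cells, while the probe of Flt3, a receptor of the same cells, was detected on 5. Xist read 4.17 to 4.39 on knockout and 9.75 to 10.88 on Bl6 arrays, and the Y-linked Eif2s3y 9.75 to 10.44 and 4.11 to 4.41, so genotype and these sex-linked states cannot be told apart. The deposited tables also disagree on the knockout's diets: the arrays named samples 1 to 3 in the intensity table stand under samples 4 to 6 in the log2 table, and the reverse. The names of the intensity table were followed, and values with the ApoE-/- diets exchanged are given for the comparisons they touch. They leave the genotype difference averaged over diets and the diet difference in Bl6 as they are. No label names a chip or batch, so batches were not tested.

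The other 7 member genes had no probe that was detected on 3 arrays. They were Ndufs1, which encodes the largest iron-sulphur subunit of complex I, Sdha (2 probes), the flavoprotein of complex II, Uqcrq, a small subunit of complex III, and the complex IV isoforms Cox4i2, Cox7b2, Cox8b and Cox8c. Their probes were detected on 0 or 1 array, with intensities up to 119.1, so their levels are unknown. Ndufs1 and Sdha encode core subunits of complexes whose other members were detected. Among the tissue isoforms of complex IV, the general form Cox4i1 was detected on all 12 arrays and Cox4i2, known from lung, on 1. The testis form Cox6b2 was detected on all 12 arrays at a dim signal of 5.12 to 6.27 log2 units, as was the general form Cox6b1. Cox7a1, the form of heart and skeletal muscle, was detected on 11 arrays at 4.51 to 5.94, and the general form Cox7a2 on all 12. Of the c-subunit genes of ATP synthase, which encode the same mature protein, Atp5g2 and Atp5g3 were detected on all 12. Cox8a, Atp5g1 and Ndufa4l2 were not analysed here.

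The subunit genes were steady across the 12 samples. In 55 of the 72 genes the highest and the lowest sample differed by less than 0.5 log2 units, in 10 by 0.5 to 1 and in 7 by more than 1. Those 7 were Ndufb4, Cox7b, Uqcrfs1, Atp5md, Cox6b2, Ndufab1 and Cox7a1. The narrowest was Cox6a1, a regulatory subunit of complex IV, at 12.90 to 13.05, followed by Atp5c1, the central stalk subunit of ATP synthase, at 12.37 to 12.53. The widest was Cox7a1, at 4.51 to 5.94. The median SD within groups was 0.103 log2 units for the 72 genes and 0.212 for all 13525, but the subunit probes are bright: among genes with a mean signal above 10 the medians were 0.0909 for 55 subunit genes and 0.109 for 2407 genes in all.

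**Figure D1:**
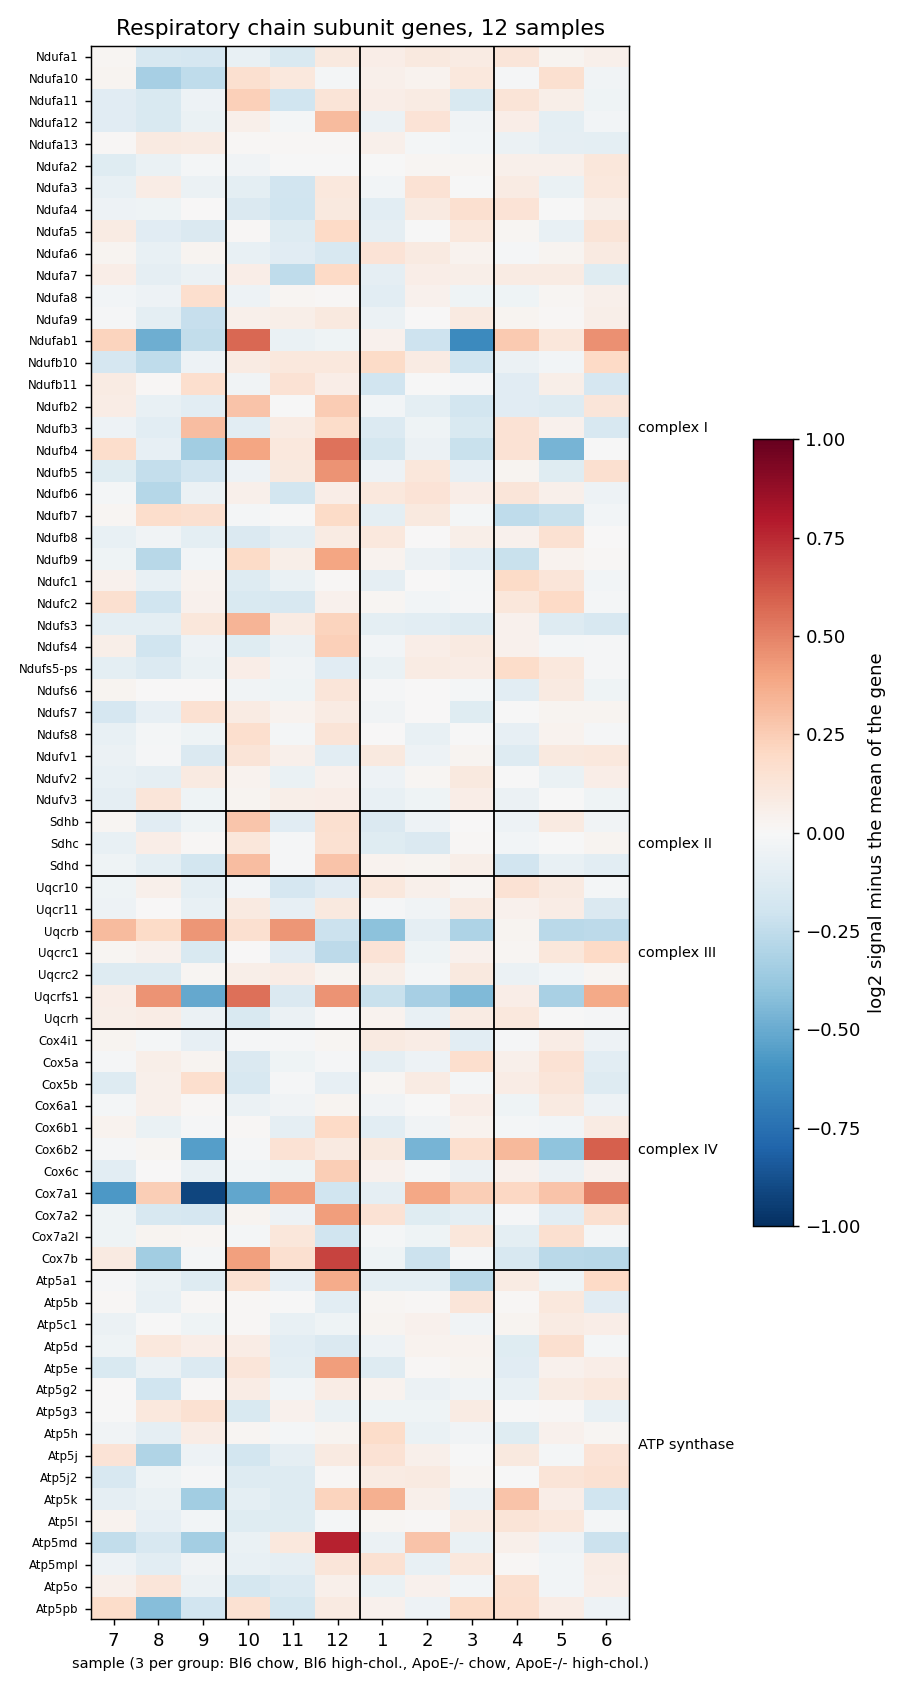
Log2 signal of each of the 72 subunit genes (rows, ordered by complex) in each of the 12 samples (columns, 3 per group), minus the mean of that gene; red is higher and blue lower. Most rows are pale, since 55 genes span less than 0.5 log2 units, and sample 12 holds the highest value of 19 genes.

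The mean log2 signal over the 72 genes was 10.95 ± 0.023 (SD, n = 3) in Bl6 chow samples, 11.04 ± 0.067 in Bl6 high-cholesterol samples, 10.99 ± 0.004 in ApoE-/- chow samples and 11.02 ± 0.010 in ApoE-/- high-cholesterol samples. By sample it was 10.98, 10.94 and 10.94 in Bl6 on chow and 11.03, 10.97 and 11.11 in Bl6 on the high-cholesterol diet. It was 10.99, 11.00 and 10.99 in ApoE-/- on chow, and 11.02, 11.01 and 11.02 in ApoE-/- on the high-cholesterol diet. The ApoE-/- samples thus lay within the range of the Bl6 samples, and samples 8, 9 and 11 were the lowest of the 12. In those same 3 samples the mean of 12 B cell genes was highest, at 10.23, 10.01 and 9.86 against 9.35 to 9.70 in the other 9. The mean of 21 proliferation genes was lowest in them, at 8.31, 8.45 and 8.40 against 8.71 to 8.97. Sample 7, the next lowest in subunit mean at 10.98, read 9.56 and 8.87 for these lists, within the range of the others. Both lists were picked from many after the values were seen. The part of these cell genes in the subunit levels was not tested.

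Loss of apolipoprotein E, averaged over both diets, changed none of the 72 genes and none of their 101 probes at an adjusted p under 0.05 (limma, Benjamini-Hochberg over 26390 probes), in a comparison that called 1.6% of all probes. At an unadjusted p under 0.05 there were 4 of 72 genes (5.56%), against 16.8% of all tested genes. The median difference, ApoE-/- minus Bl6, was 0.02 log2 units over the subunit genes and 0.01 over all genes, with 46 of 72 above 0. For 66 of the 72 genes the 95% interval of the difference lay within 0.5 log2 units of 0 (1.41-fold either way), and for all 72 it lay within 1 (2-fold). Of all genes, 65.9% had an interval within 0.5. The subunit probes are brighter than those of most genes, and shares at matched brightness were not computed, here or for the comparisons below.

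By complex, the median genotype difference was 0.02 for complex I (21 of 35 above 0), -0.09 for complex II (0 of 3), 0.02 for complex III (5 of 7), 0.02 for complex IV (8 of 11) and 0.05 for ATP synthase (12 of 16). The brightest probes of each showed how narrow the readings were. Atp5b, the catalytic beta subunit of ATP synthase, read 14.01, 13.93 and 14.01 in Bl6 on chow and 14.01, 14.00 and 13.90 in Bl6 on the high-cholesterol diet. In ApoE-/- it read 14.02, 14.01 and 14.12 on chow and 14.01, 14.11 and 13.89 on the high-cholesterol diet. The groups overlapped, and the difference was 0.05 ± 0.07 (standard error, here and below; adjusted p = 0.812).

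Cox4i1, an early-assembling subunit of complex IV, differed by 0.02 ± 0.07 with genotype, with a 95% interval of -0.14 to 0.18. Cox5b, a subunit of the same complex that binds zinc, ran from 12.93 to 13.26 over the samples. Atp5g3 of the c-ring ran from 13.59 to 13.90, and Atp5l, a membrane subunit of the same enzyme, from 13.41 to 13.66. Ndufa13, a complex I subunit also known as GRIM-19, ran from 13.34 to 13.53. Ndufa4, now assigned to complex IV but counted here under complex I by its symbol, ran from 12.68 to 13.04. In complex III, the hinge protein gene Uqcrh ran from 13.27 to 13.53 and Uqcr10 from 12.86 to 13.17. The iron-sulphur subunit gene Sdhb of complex II ran from 10.60 to 11.02 and the membrane anchor Sdhc from 10.60 to 10.90. The genotype differences of these genes ran from -0.09 (Sdhc) to 0.13 (Uqcr10).

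The smallest p of the comparison belonged to Uqcrb, a subunit of complex III that lies close to the ubiquinone site. It read 7.32, 7.19 and 7.44 in Bl6 on chow and 7.16, 7.44 and 6.79 in Bl6 on the high-cholesterol diet. In ApoE-/- it read 6.59, 6.91 and 6.69 on chow and 7.03, 6.73 and 6.74 on the high-cholesterol diet. Of the 6 Bl6 samples 5 stood above all 6 ApoE-/- samples, with sample 12 among the latter. The difference was -0.44 ± 0.12 (95% interval -0.70 to -0.17; adjusted p = 0.102), which missed the threshold. It passed with an offset of 50 (adjusted p = 0.0495), without background correction (0.0398) and with a variance trend and robust moderation (0.0454), at -0.35, -0.26 and -0.44; over all alternatives the adjusted p ran from 0.0398 to 0.139, and from 0.0555 to 0.214 with 1 sample left out.

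Cox7b followed with -0.33 ± 0.11 (adjusted p = 0.174) and was followed in p by Cox7a1 and Ndufs3. Cox7a1 differed by 0.51 ± 0.21 (adjusted p = 0.255). It read 4.86, 5.68 and 4.51 in Bl6 on chow, 4.91, 5.85 and 5.23 in Bl6 on the high-cholesterol diet, and 5.34 to 5.94 in the 6 ApoE-/- samples, so the genotypes overlapped at a signal near the limit of detection. Ndufs3, a core subunit of the arm of complex I that faces the matrix, differed by -0.19 ± 0.08 (adjusted p = 0.288).

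**Figure D2:**
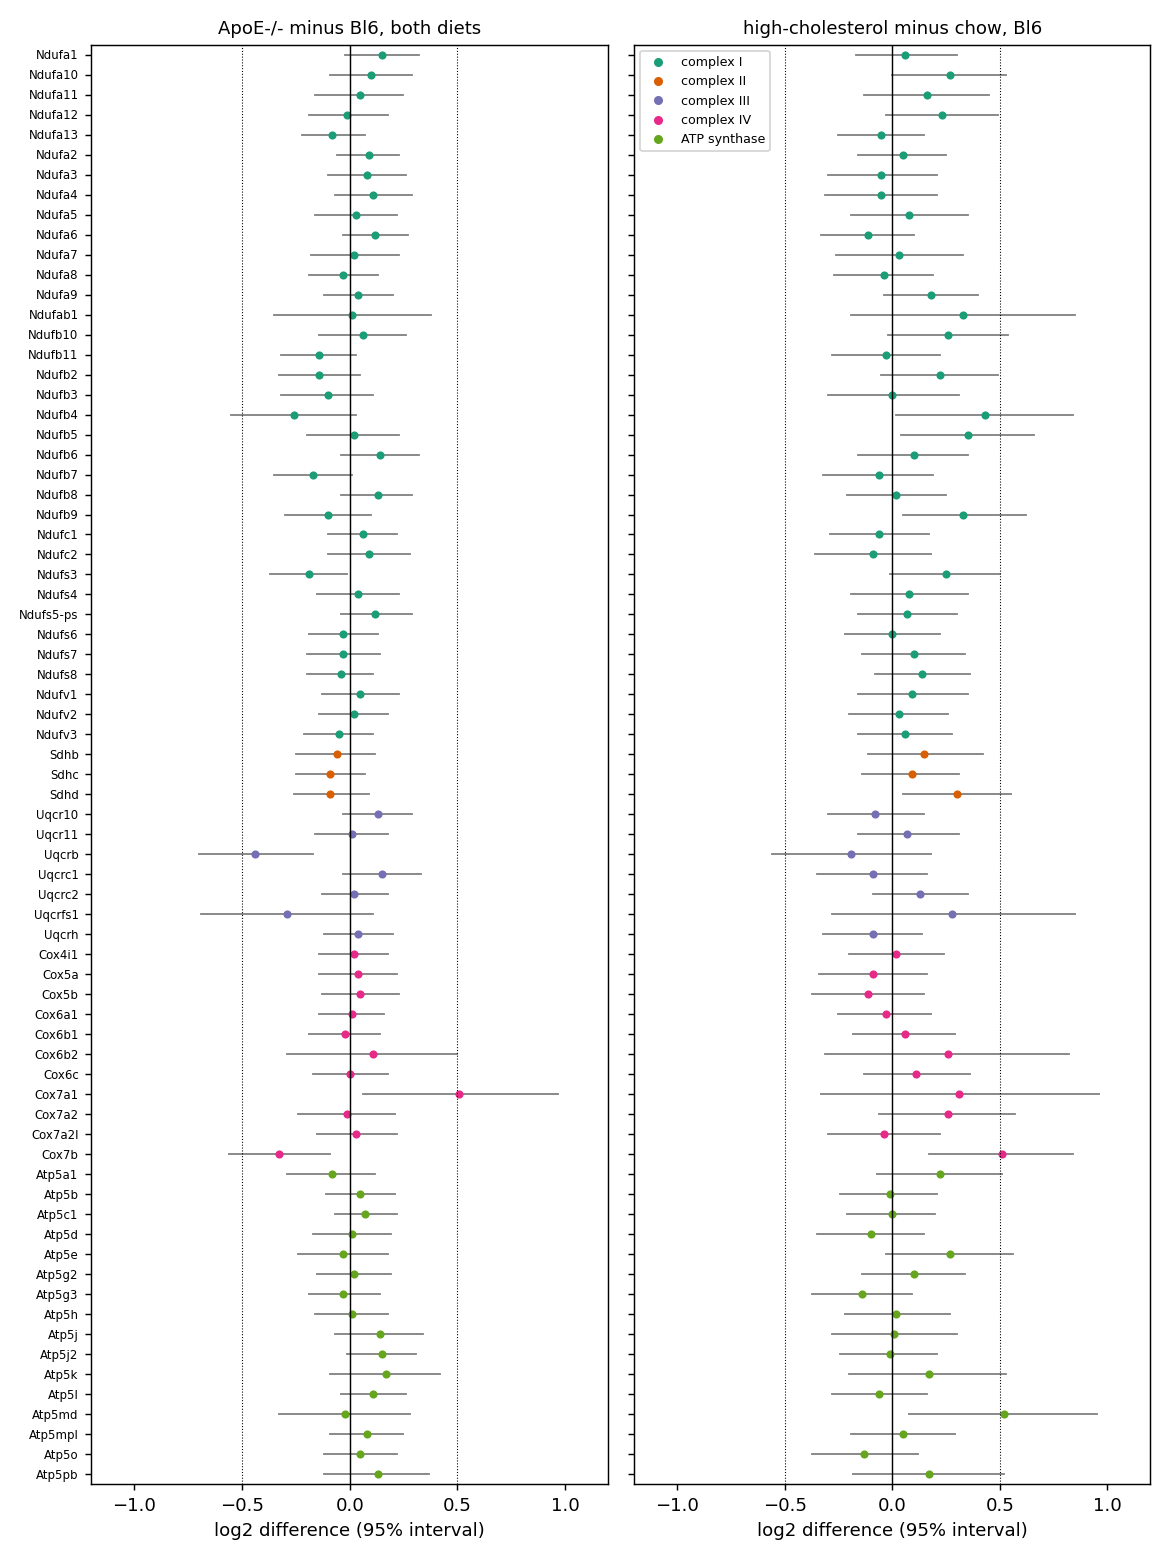
Log2 difference of each of the 72 subunit genes (points, coloured by complex) with its 95% interval (lines), for genotype averaged over both diets and for diet in Bl6 samples; dotted lines stand at 0.5 log2 units either side of 0. The interval stays inside the dotted lines for 66 genes with genotype and for 53 genes with diet in Bl6.

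Of the tested member genes 4 lie within 20 Mb of Apoe on chromosome 7, and 3 on the X chromosome (positions on GRCm38.p6). Near Apoe (chromosome 7, 19696244 to 19701310), Ndufa3, 16.1 Mb away, differed by 0.08, Cox6b2, 14.9 Mb away, by 0.11, Cox6b1, 10.9 Mb away, by -0.02 and Cox7a1, 10.5 Mb away, by 0.51. On the X chromosome, Ndufa1 differed by 0.15 (adjusted p = 0.384), Ndufb11 by -0.14 (0.424) and Cox7b by -0.33 (0.174). None of the 7 passed, and both sets held both signs. For the X-linked genes, Cox7b included, genotype cannot be told apart from the sex-linked states read from Xist and Eif2s3y.

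Within each diet the genotype comparison again called 0 of the 72 genes and 0 of the 101 probes. On chow, where 0.254% of all probes were called, 1 subunit gene had an unadjusted p under 0.05 (1.39%, against 10.7% of all genes), and the median was 0.05 with 45 of 72 above 0. On the high-cholesterol diet, where 0.765% of probes were called, there were 4 (5.56%, against 13.9%), and the median was 0.00 with 36 above 0. Intervals lay within 0.5 log2 units for 63 and 61 genes, against 42.3% and 39% of all genes. With the ApoE-/- diets exchanged, the medians were 0.06 and -0.01, no member was called, and the comparisons called 0.284% and 0.424% of all probes.

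On chow the smallest p was again that of Uqcrb, at -0.59 ± 0.17 (adjusted p = 0.237; -0.48 with diets exchanged). The 3 Bl6 chow samples, at 7.19 to 7.44, stood above the 3 ApoE-/- chow samples, at 6.59 to 6.91. Ndufa10, an accessory subunit of complex I, came next with 0.25 ± 0.12 (adjusted p = 0.515; 0.22 with diets exchanged). It read 11.40, 11.04 and 11.12 in Bl6 and 11.42, 11.41 and 11.48 in ApoE-/- samples, which come close without overlapping.

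On the high-cholesterol diet the smallest p was that of Cox7b, a small subunit of complex IV encoded on the X chromosome (106015700 to 106022450). It read 8.23, 7.98 and 8.49 in the Bl6 and 7.66, 7.55 and 7.54 in the ApoE-/- samples of that diet. The groups did not overlap, and the difference was -0.65 ± 0.15 (95% interval -0.99 to -0.31; adjusted p = 0.0923). With the diets exchanged it was -0.51 (adjusted p = 0.166). It passed the threshold with an offset of 50 (-0.57, adjusted p = 0.032), without background correction (-0.48, 0.0175), in the deposited log2 values (-0.40, 0.0371), over probes detected on all 12 arrays (-0.65, 0.0425) and with a variance trend and robust moderation (-0.65, 0.0165). The adjusted p ran from 0.0165 to 0.212 over all 10 alternatives, the passing ones included, and from 0.0801 to 0.256 with 1 sample left out.

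Sdhd, a membrane anchor of complex II, came second on that diet. It read 9.71, 9.39 and 9.69 in Bl6 and 9.21, 9.33 and 9.30 in ApoE-/- samples. Although these groups did not overlap, the difference of -0.32 ± 0.11 had an adjusted p of 0.252, and with the diets exchanged it was -0.15 (0.614). Ndufs3 (-0.30 ± 0.12, adjusted p = 0.29) and Ndufb4, a membrane-arm subunit of complex I (-0.46 ± 0.19, 0.323), were the other 2 genes with an unadjusted p under 0.05. With the diets exchanged they read -0.33 and -0.50.

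**Figure D3:**
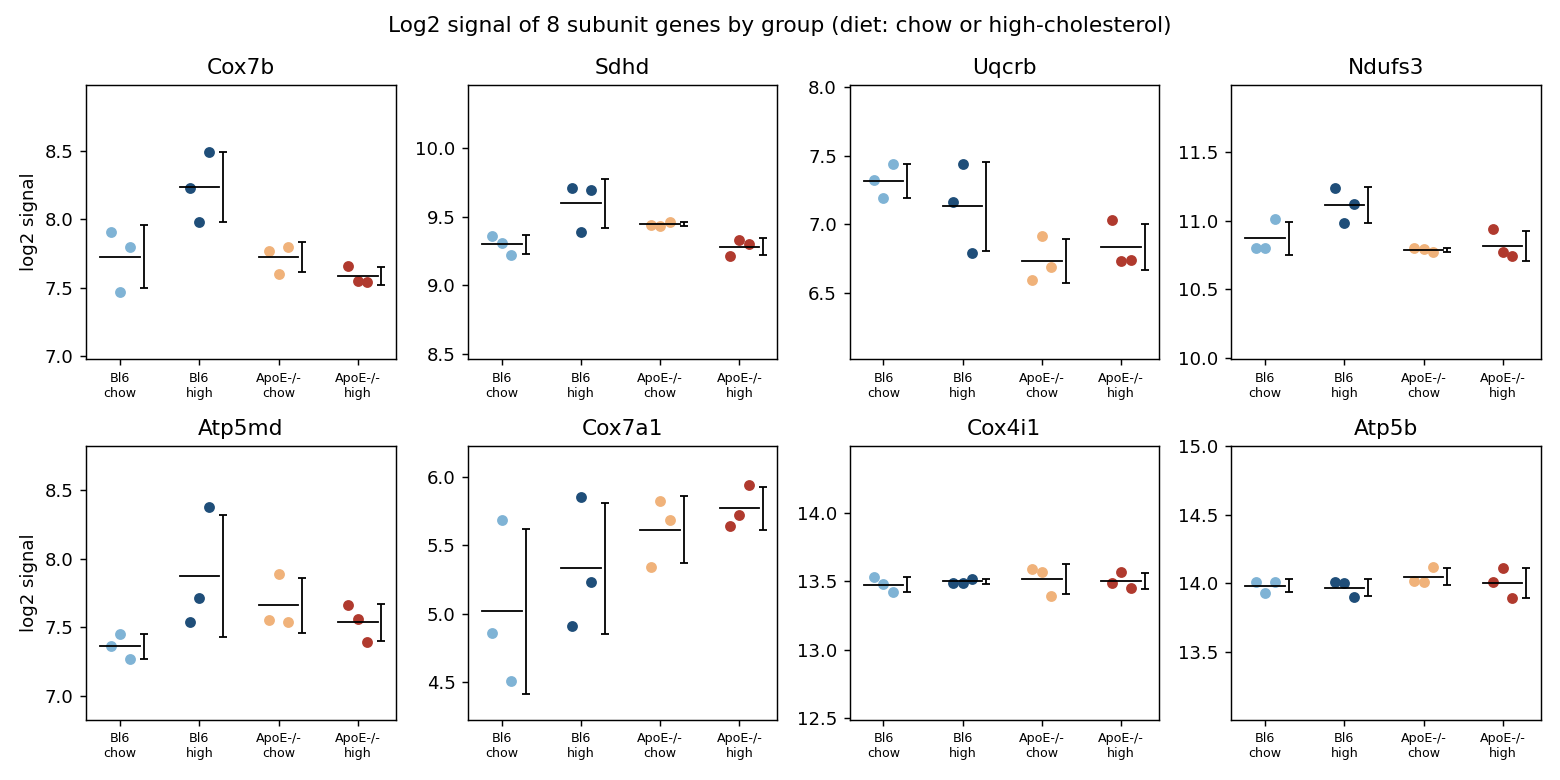
Log2 signal of 8 subunit genes in the 12 samples by group (3 points each), with the group mean (line) and its SD (bar); every panel spans 2 log2 units. Cox7b is highest in the 3 Bl6 high-cholesterol samples (7.98 to 8.49), Uqcrb is lower in the ApoE-/- samples and Bl6 sample 12, and Cox4i1 and Atp5b are level.

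The high-cholesterol diet in Bl6 mice called 0 of the 72 genes and 0 of the 101 probes, with 0.0379% of all probes called. The subunit genes leaned upward: the median difference, high-cholesterol minus chow, was 0.06 against 0 for all genes, and 47 of 72 were above 0, against 49.4% of all genes. An unadjusted p under 0.05 was reached by 7 genes (9.72%), all with positive differences, against 12% of all genes. By complex, the medians were 0.07 for complex I (25 of 35 above 0), 0.15 for complex II (3 of 3), -0.08 for complex III (3 of 7), 0.06 for complex IV (7 of 11) and 0.02 for ATP synthase (9 of 16). Intervals lay within 0.5 log2 units for 53 genes and within 1 for all 72. The lean depends on scaling: with arrays scaled to a shared median the subunit median was 0.18 with 68 of 72 above 0, and in the deposited log2 values 0.13 with 66, while all genes moved to 0.05 and 0. Without sample 12 it was 0.02.

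Over all 101 probes the smallest adjusted p was 0.171, at a dim probe of Atp5pb of ATP synthase (0.65 ± 0.16). The other probes of Atp5pb, the brightest first, read 0.17, -0.06 and 0.01. Of the 7 genes with an unadjusted p under 0.05, each read by its brightest probe, Cox7b had the smallest p. It read 7.91, 7.47 and 7.80 on chow and 8.23, 7.98 and 8.49 on the high-cholesterol diet, a difference of 0.51 ± 0.15 (95% interval 0.17 to 0.84; adjusted p = 0.24). Sdhd read 9.36, 9.31 and 9.22 on chow and 9.71, 9.39 and 9.69 on the high-cholesterol diet, a difference of 0.30 ± 0.11 (adjusted p = 0.332). In both genes the diets did not overlap, although sample 11 stood close to the chow samples. Atp5md, a small subunit also known as DAPIT, read 7.36, 7.45 and 7.27 on chow and 7.54, 7.71 and 8.38 on the high-cholesterol diet, a difference of 0.52 ± 0.20 (adjusted p = 0.332) with sample 12 well above the others. The others belong to complex I. They were Ndufb9 (0.33 ± 0.13, adjusted p = 0.341), Ndufb5 (0.35 ± 0.14, 0.36), Ndufb4 (0.43 ± 0.19, 0.388) and Ndufa10 (0.27 ± 0.12, 0.416).

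In ApoE-/- mice the diet called 0 of the 72 genes, 0 of the 101 probes and 0% of all probes, with 981 of the 26390 probes at an unadjusted p under 0.05. The subunit median was 0.01 with 43 of 72 above 0, and 66 genes had an interval within 0.5 log2 units, against 51.7% of all genes. With the diets exchanged the sign turns by construction. With each gene read by its brightest probe, the smallest p was that of Ndufab1 (unadjusted p = 0.0414), the mitochondrial acyl carrier protein and a complex I subunit. A dim probe of Atp5pb had a smaller unadjusted p (0.0346) and the other sign, at -0.49 ± 0.20. Ndufab1 read 5.82, 5.57 and 5.14 on chow and 6.04, 5.89 and 6.23 on the high-cholesterol diet. Its difference of 0.54 ± 0.24 had an adjusted p of 1. Atp5a1, the alpha subunit of ATP synthase, followed with 0.24 ± 0.13 (adjusted p = 1). Under median scaling 12 of 72 genes were above 0, and in the deposited log2 values 62 were, with medians of -0.04 and 0.06, so no direction can be given for this comparison.

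The interaction, the diet difference in ApoE-/- minus that in Bl6, called 0 of the 72 genes, 0 of the 101 probes and 0% of all probes, with 2006 probes at an unadjusted p under 0.05. The subunit median was -0.04, with 46 of 72 below 0. The precision was lower here, with intervals within 0.5 log2 units for 43 genes (against 19.2% of all genes) and within 1 for 69. Cox7b (-0.64 ± 0.22, adjusted p = 0.539), Sdhd (-0.47 ± 0.16, 0.546) and Atp5md (-0.64 ± 0.28, 0.639) had unadjusted p-values under 0.05. With the diets exchanged these differences were -0.37, -0.13 and -0.39, and the subunit median was -0.06 with 21 of 72 above 0 (26 under the names used). A diet response that differs between genotypes was therefore not detectable at this precision.

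The diet differences in Bl6 varied with the brightness of the probe, a pattern that was looked for after the values were seen. Among the 12 subunit genes with a mean signal of 7 to 10 log2 units the median was 0.26 (9 of 12 above 0), among the 28 at 10 to 12 it was 0.09 (23 of 28), and among the 27 above 12 it was -0.01 (10 of 27). The 5 genes under 7 had a median of 0.28. For all genes the 4 medians, from dim to bright, were 0, -0.01, 0 and -0.02. Across the 72 genes the difference and the mean signal had a Pearson's r of -0.62 (Spearman's rho -0.65), against -0.02 over 13525 genes; these points share the same 6 arrays, and no p is given. In ApoE-/- samples r was -0.40 (rho -0.26) under the diet names used, and its sign turns when they are exchanged. There the 12 genes at 7 to 10 had a median of 0.01, the 28 at 10 to 12 of 0.03 and the 27 above 12 of 0.01. Only the 5 genes under 7 stood apart, with a median of 0.23 (4 of 5 above 0).

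The 12 genes at 7 to 10 were Ndufb10, Ndufb9, Ndufb7, Ndufb4, Ndufb2 and Ndufb11 of complex I, Sdhd, Uqcrb, Cox7a2, Cox7b, Atp5e and Atp5md. Relative to its mean over the 12 samples, this set stood at 0.15, 0.08 and 0.33 in samples 10, 11 and 12 and between -0.12 and 0.00 in the other 9. On the high-cholesterol diet all 12 had a negative genotype difference (median -0.25, range -0.65 to -0.07), while 21 of the 27 genes above 12 had a positive one (median 0.10). Of all genes at these 2 levels, 52.7% and 52.4% were above 0, with medians of 0.01 and 0.01. The dimmest subunit genes, under 7, did not go with the 12: 4 of 5 were above 0 (median 0.10). At 10 to 12, 11 of 28 were above 0 (median -0.01). This comparison reuses the Bl6 high-cholesterol arrays that gave the diet pattern, so the patterns are not separate observations. All 12 were also negative with the ApoE-/- diets exchanged (median -0.20), under median scaling (-0.30), without background correction (-0.18) and in the deposited log2 values (-0.12). Without sample 12, 11 of 12 were negative, with a median of -0.17. That sample held the highest reading of 19 of the 72 genes (26.4%), against 11.3% of all genes. All 12 genotype differences share the same 6 arrays, and none passed the threshold.

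**Figure D4:**
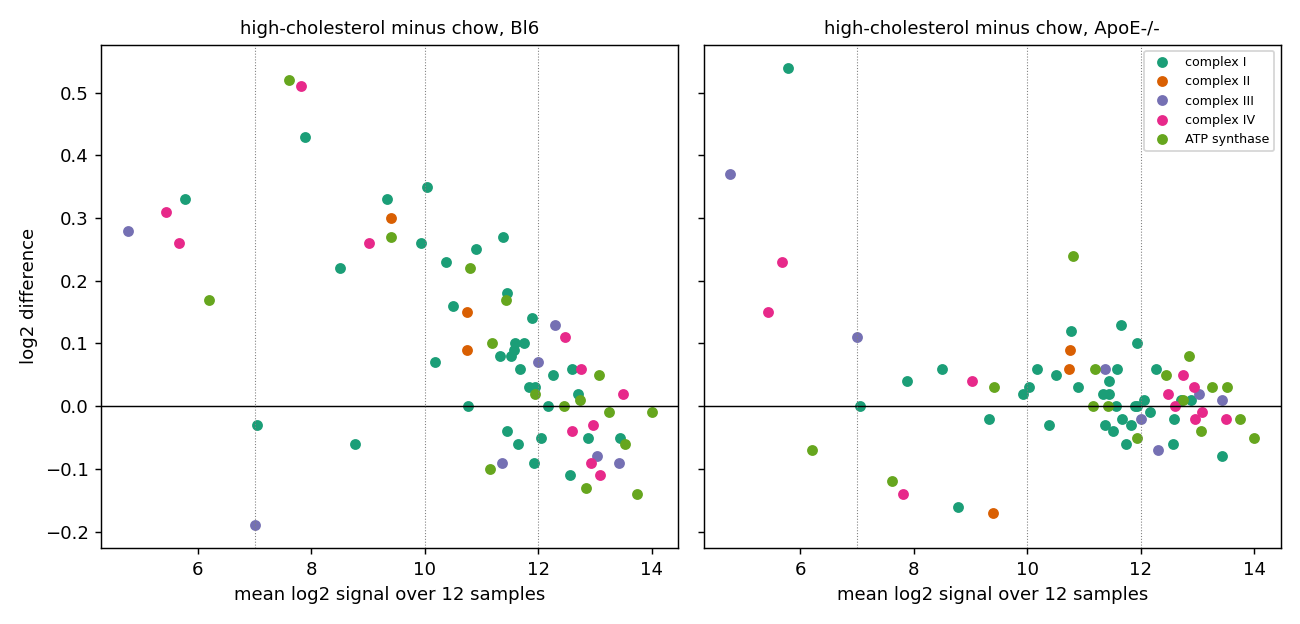
Log2 difference between the diets of each of the 72 subunit genes (points, coloured by complex) against its mean log2 signal, in Bl6 samples (left) and ApoE-/- samples (right); dotted lines stand at 7, 10 and 12. In Bl6 samples the points at 7 to 10 have a median of 0.26 and those above 12 a median of -0.01.

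Probes of 1 gene could be compared in the same way. Of the 22 subunit genes with several tested probes, the dimmest probe gave a higher diet difference in Bl6 than the brightest in 16 (72.7%) and a lower one in 6, against 54.7% higher among 5251 genes in all. In Bl6 the brightest and the dimmest probe read -0.13 ± 0.11 and 0.38 ± 0.19 for Atp5o, the peripheral stalk subunit known as OSCP, and 0.15 ± 0.12 and 0.41 ± 0.21 for Sdhb. These dim probes were detected on 10 and 11 arrays. The order was the reverse for Ndufb6 of complex I, at 0.10 ± 0.12 and -0.21 ± 0.27, and for Ndufb10, at 0.26 ± 0.13 and 0.04 ± 0.14. The pair had opposite signs in 9 of 22 genes (40.9%), near the share of all genes (39.9%), and the difference between probes was not tested.

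Lists of related genes held 1 call between them in the averaged genotype comparison, which called 1.6% of all probes. With genotype averaged over diets, 0 of 40 tested assembly factors of the chain passed (median -0.05), 0 of 15 genes of the tricarboxylic acid cycle and pyruvate dehydrogenase (0.02), 0 of 15 glycolysis genes (0.00), 0 of 16 electron carrier and ATP export genes (-0.02), 0 of 21 import and inner membrane genes (-0.07), 0 of 15 biogenesis regulators (0.03) and 0 of 24 cytosolic ribosomal protein genes (0.01). Of 69 genes of mitochondrial translation, 1 fell: Mrps12, a protein of the small mitochondrial ribosomal subunit, by -0.98 ± 0.08 (adjusted p = 7.8e-05). Mrps12 read 9.89 to 10.16 on the knockout arrays and 10.90 to 11.06 on the Bl6 arrays, without overlap, and lies on chromosome 7 (28739641 to 28741821), within 20 Mb of Apoe. The medians of these lists, translation included at -0.03, ran from -0.07 to 0.03.

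With diet in Bl6, 0 genes of these lists passed. The median was 0.11 for assembly factors (32 of 40 above 0), 0.08 for mitochondrial translation (58 of 69) and 0.11 for electron carriers and ATP export (14 of 16), against 0.06 for the subunits. It was 0.06 for the tricarboxylic acid cycle, 0.02 for glycolysis, 0.01 for import, -0.06 for the biogenesis regulators (4 of 15 above 0) and -0.01 for cytosolic ribosomal proteins. Cyc1, the cytochrome c1 of complex III that the name rule leaves out, differed by 0.25 ± 0.12 (adjusted p = 0.451) with diet in Bl6 and by -0.13 ± 0.09 with genotype. Cycs, cytochrome c itself, differed by 0.05 ± 0.11 and 0.17 ± 0.08. Of the factors whose letters are marked in the promoters, Nrf1 differed by -0.06 ± 0.12 with diet in Bl6 and Gabpa by -0.67 ± 0.21 (adjusted p = 0.245). These genes were chosen after their values were seen, and Yy1 is not given here. The 15 biogenesis regulators ran from -0.67, the value of Gabpa, to 0.16. Gabpa read 6.76, 6.58 and 6.64 on chow and 5.40, 6.26 and 6.32 on the high-cholesterol diet, without overlap and with sample 10 far below the rest.

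**Figure D5:**
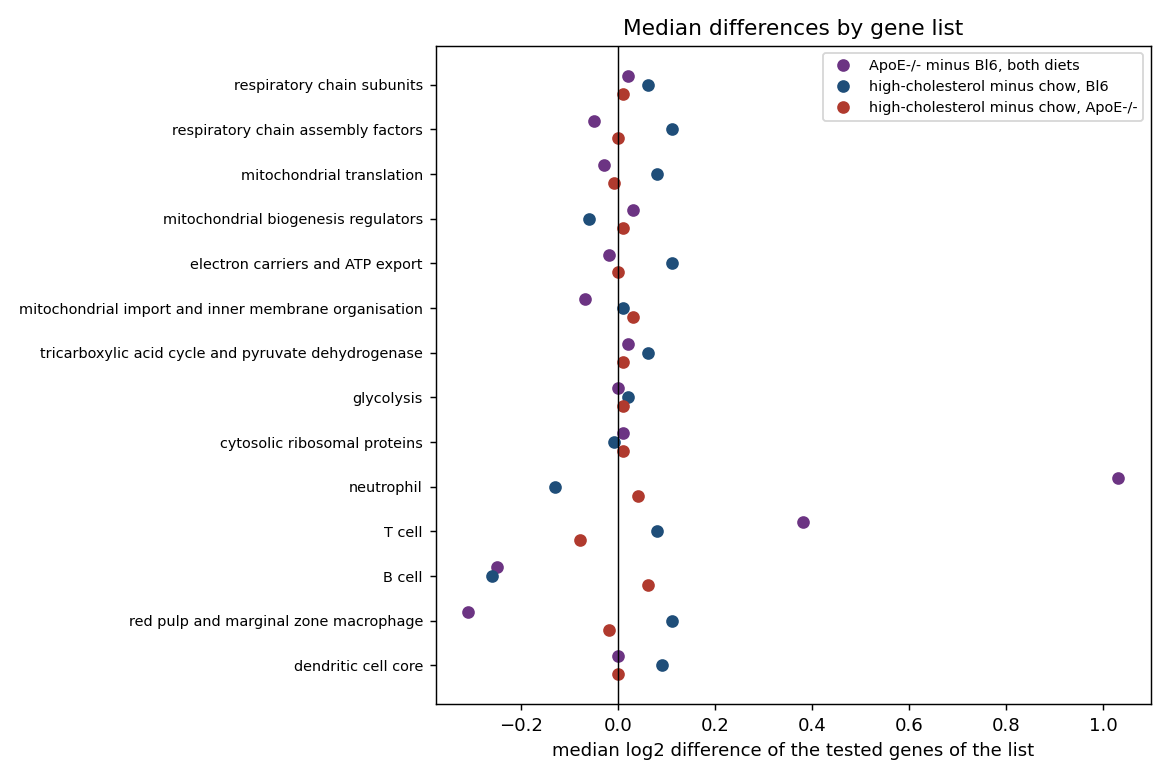
Median log2 difference of the tested genes of each list, for genotype averaged over diets and for diet in each genotype. The respiratory chain subunits stand at 0.02, 0.06 and 0.01, and the neutrophil genes at 1.03 with genotype.

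Some genes of the cell type lists did move with genotype averaged over diets, a comparison that called 1.6% of all probes. Of 14 tested neutrophil genes 9 rose, led by Cd177 (1.37 ± 0.13, adjusted p = 0.000335) and S100a8 (1.10 ± 0.14, 0.00283). Cd177, like Mrps12, lies on chromosome 7 (24743983 to 24760334), within 20 Mb of Apoe, while S100a8 lies on chromosome 3. The mean of the neutrophil list was 7.10 to 7.46 on Bl6 arrays and 7.90 to 8.50 on ApoE-/- arrays. Of 11 T cell genes 3 rose, led by Thy1 and Cd6 (0.71 and 0.67), as did 1 of 9 NK cell genes, Il2rb, and 1 of 8 monocyte genes, F13a1. Of 15 macrophage genes 2 fell, C1qa and Cd68 (-0.46 and -0.57). In addition, 1 gene fell of each of the erythroid list (Epor), the type 1 conventional dendritic cell list (Cadm1) and the plasmacytoid list (Klk1). The erythroid list had 3 of 9 genes above 0 (median -0.13) and the plasmacytoid list 2 of 8 (median -0.12). The type 1 list had 5 of 8 above 0 (median 0.04), so most of it did not go with Cadm1. None of the 11 core dendritic cell genes, 12 B cell genes, 8 type 2 conventional dendritic cell genes, 21 proliferation genes or 14 heat shock and stress genes passed. Even so, the B cell list leaned down (1 of 12 above 0, median -0.25) and the proliferation list up (18 of 21, median 0.24). The core, type 2 and heat shock lists had medians of 0, 0.12 and 0.05. With diet, 0 genes of any of these lists passed in either genotype. The subunit genes thus held a median difference of 0.02 between samples in which the neutrophil list differed by a median of 1.03, and the part of the cell makeup in the subunit values was not tested.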

How the data were processed

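RNA of CD11c+ spleen cells was hybridised to Illumina MouseWG-6 v2 arrays, 1 array per sample and 12 in all, from 100 ng of total RNA per the labels. The deposited intensity table holds, per the file headers, a linear intensity and a detection p-value for each of 46237 probes, with no background subtraction or scaling between arrays in its values. A second deposited table is on the log2 scale, and each of its columns is the log2 of 1 intensity column plus a constant that the authors do not explain in the sources used. In 6 of its 12 columns, all ApoE-/-, the values are those of the other diet's arrays. The files do not settle which naming holds.

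Intensities were background-corrected with limma 3.58.1 in R 4.3.3 (normexp by the nec function, negative controls inferred from detection p-values, offset 16), quantile-normalised and log2-transformed. Testing was limited to 26390 probes whose detection p fell under 0.05 on 3 arrays or more. One model with 4 group means was fitted (8 residual degrees of freedom, prior 3.42), with 6 contrasts, two-sided moderated tests and Benjamini-Hochberg adjustment over all tested probes. "Changed", "rose", "fell" and "passed" mean an adjusted p under 0.05, and ± is the model's standard error unless SD is stated. With 12 arrays, their number limits the precision.

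Probes had 1 symbol (35784), several (0) or none (10453). Current symbols came from a GRCm38.p6 gene table, by gene number (28620), transcript (2637), symbol (2128) or unique synonym (2343), with 56 unmatched. The brightest tested probe stood for each gene. By the rule, 4 probes of member genes listed under other symbols were left out. Named genes were any called member, the 2 with the smallest p per contrast without a call, the 2 brightest probes per complex, tissue isoforms, members near Apoe or on the X chromosome, and up to 2 called genes per other list; further genes, among them those with an unadjusted p under 0.05 and those used as probe examples, were chosen after their values were seen. Members, lists and tests were chosen with earlier results of these data known. Alternatives covered the offset, background correction, scaling, the deposited log2 values, detection filters, variance moderation, the exchanged diets and each sample left out. The steps were tested on simulated data.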

Additional observations from a re-analysis of the deposited data

How the results depend on the processing

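The count of called subunit genes was 0 in every contrast as reported and with each of the 12 samples left out in turn. It was 0 under every alternative run on chow, for diet in either genotype and for the interaction. For genotype averaged over diets it became 1 (Uqcrb) with an offset of 50, without background correction, and with a variance trend and robust moderation, and 2 in the deposited log2 values (Atp5j2 at 0.22, adjusted p = 0.0452, and Uqcr10 at 0.21, 0.0464). For genotype on the high-cholesterol diet it became 1 (Cox7b) under those 4 settings and over the probes detected on all 12 arrays. The cause was not tested. The medians moved with scaling. In the order genotype averaged, on chow, on the high-cholesterol diet, diet in Bl6, diet in ApoE-/- and interaction, they were 0.06, 0.18, -0.06, 0.18, -0.04 and -0.23 under median scaling, with 50, 65, 24, 68, 12 and 5 of 72 genes above 0. In the deposited log2 values they were 0.08, 0.12, 0.03, 0.13, 0.06 and -0.07, with 57, 61, 44, 66, 62 and 20 above 0, against 46, 45, 36, 47, 43 and 26 as reported. The median of all genes was -0.11 for the interaction under median scaling and 0.10 for genotype on the high-cholesterol diet in the deposited values, so the subunit genes stood at -0.12 and -0.06 relative to it. With 1 sample left out the 6 medians ran from 0 to 0.05, 0.03 to 0.07, -0.04 to 0.02, 0.02 to 0.08, 0.01 to 0.02 and -0.07 to -0.02. The value for genotype on the high-cholesterol diet was -0.04 and that for the interaction -0.07 without sample 11, and that for diet in Bl6 0.02 without sample 12. With the ApoE-/- diets exchanged, Ndufab1 and Atp5a1 read -0.54 and -0.24 for diet in ApoE-/-, by construction. No paired analysis was possible because the samples carry running numbers from 1 to 12 that no group shares. Signal over background limits the genes read near the detection limit, among them Cox7a1, Cox6b2, Uqcrfs1 and Ndufab1, and the 7 untested genes.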
